A study of Mus musculus with 2 samples.

Results

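The genes described here serve protein folding and protein disposal in the endoplasmic reticulum (ER). They are 41 listed mouse genes for ER stress sensors, luminal chaperones, disulfide and prolyl isomerases, the glycoprotein folding cycle and ER-associated degradation, and a probe set belonged to them if the platform's annotation gave it exactly 1 gene symbol and that symbol was on the list. Of the 41 genes, 40 were found among the 12393 genes named on the arrays, 37 under the listed symbol and 3 under the current one (Ero1a for Ero1l, Ero1b for Ero1lb and Ufd1 for Ufd1l). Mbtps2 was unnamed in the annotation used. The 40 genes were read by 82 probe sets.

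The cells were NIH 3T3, an established mouse embryonic fibroblast line. They were transfected with Lipofectamine and harvested for RNA 48 hours later. One culture received the plasmid pHA-CMV-ATCE1-C-del, which drives a C-terminally deleted form of ATCE1 that the submitters describe as nuclear, and the other received the empty pHA-CMV vector. ATCE1, a transcription factor of the bZIP class, is the product of the gene now named Creb3l4. The comparison asks which transcripts differ in abundance when its truncated form is present. Each group was 1 array, transfected cells were not separated from untransfected ones in the protocols given, and no value has a replicate error or a test.

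Newly made secretory and membrane proteins fold in the ER with the help of the Hsp70 chaperone BiP, the Hsp90 chaperone GRP94, lectin chaperones and disulfide isomerases, and those that fail are pulled back to the cytosol and destroyed. When unfolded protein builds up, the sensors IRE1, PERK and ATF6 start the unfolded protein response, which raises transcription of these helpers. ATF6 and its relatives of the CREB3 family sit in the ER membrane until the proteases encoded by Mbtps1 and Mbtps2 free their N-terminal part, which then enters the nucleus. ATF6 acts through the ER stress response element (ERSE), a CCAAT box and a CCACG motif a fixed distance apart.

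A promoter sequence from RefSeq (GRCm38.p6) was matched to 38 of the 41 genes. It was searched on both strands from 250 bases before to 50 bases after the start site for the ERSE, spelled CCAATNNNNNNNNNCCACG, and 10 of the 38 genes held it, or 26.3%. Of all 32851 promoters of the same length, 39 held it, or 0.119%, and 10 of the 37 genes behind those promoters were genes of the list. The list was drawn up from knowledge of this pathway, so the share describes the genes and is no result of the arrays. The matches are shown because ER stress signals are known to act through this element. Only the exact spelling within these bases was searched, so a gene without a match may still carry a form of it. For the 8 of these genes with a signal above the floor on both arrays, each line gives the match with 10 bases on either side, read 5′ to 3′ on the strand that spells CCAAT first, and the fixed bases of the motif are in capitals.
Hspa5 (chr2:34772015-34772053, + strand): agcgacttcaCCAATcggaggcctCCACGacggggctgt
Hsp90b1, farther match (chr10:86705628-86705666, - strand): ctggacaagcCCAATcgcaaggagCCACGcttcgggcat
Hsp90b1, nearer match (chr10:86705523-86705561, + strand): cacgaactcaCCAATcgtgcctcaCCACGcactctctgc
Dnajc3 (chr14:118937817-118937855, + strand): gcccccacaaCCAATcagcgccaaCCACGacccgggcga
Creld2 (chr15:88819510-88819548, - strand): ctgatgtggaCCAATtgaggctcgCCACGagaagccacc
Pdia6 (chr12:17266481-17266519, + strand): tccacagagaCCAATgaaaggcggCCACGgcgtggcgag
Calr (chr8:84847065-84847103, + strand): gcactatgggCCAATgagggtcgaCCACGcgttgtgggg
Canx (chr11:50325790-50325828, - strand): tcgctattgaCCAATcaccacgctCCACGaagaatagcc
Syvn1 (chr19:6046522-6046560, + strand): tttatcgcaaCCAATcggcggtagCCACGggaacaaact

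The remaining ERSE matches were in Derl3 and Ero1b, both under the floor on these arrays. All 11 matches lay before the start site, their first bases between 44 and 212 bases upstream, 6 on the strand of the gene and 5 on the opposite one. Hsp90b1 held 2 of them. The 250 bases before the start site of Hspa5 (chr2:34771840-34772089, + strand) are given whole, since BiP is the usual readout of the unfolded protein response. Its match to the exact spelling of the ERSE is in capitals. Other forms of the element were not searched and are not marked. The stretch ccaatcagcggcctccaac, upstream of the match, has CCAAC where the exact spelling has CCACG.
Hspa5, upstream: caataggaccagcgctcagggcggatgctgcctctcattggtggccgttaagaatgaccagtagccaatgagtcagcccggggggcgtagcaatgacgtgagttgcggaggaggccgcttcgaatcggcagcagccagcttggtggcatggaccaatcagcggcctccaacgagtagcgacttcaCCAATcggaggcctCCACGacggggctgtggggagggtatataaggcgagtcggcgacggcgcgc

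The stretch held 4 CCAAT boxes over both strands and 1 CCACG. A second form of the element, ERSE-II, spelled ATTGGNCCACG, was found in Herpud1 (chr8:94386367-94386397, + strand: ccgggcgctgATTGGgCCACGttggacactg) and, just after the start site, in Dnajb11, against 0.0365% of all promoters. It shares CCACG and, on the opposite strand, CCAAT with the ERSE. The unfolded protein response element core TGACGTGG was found in Vcp only, against 0.676% of all promoters, and the palindromic cAMP response element TGACGTCA in 0 of the 38 genes, against 1.79% of all promoters. Of the parts of the ERSE taken alone, CCACG was in 28 of the 38 genes, or 73.7%, against 35.5% of all 27025 genes with a promoter, and CCAAT in 27, or 71.1%, against 41.1%. A match is a description of letters, not of a bound site.

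**Figure D1:**
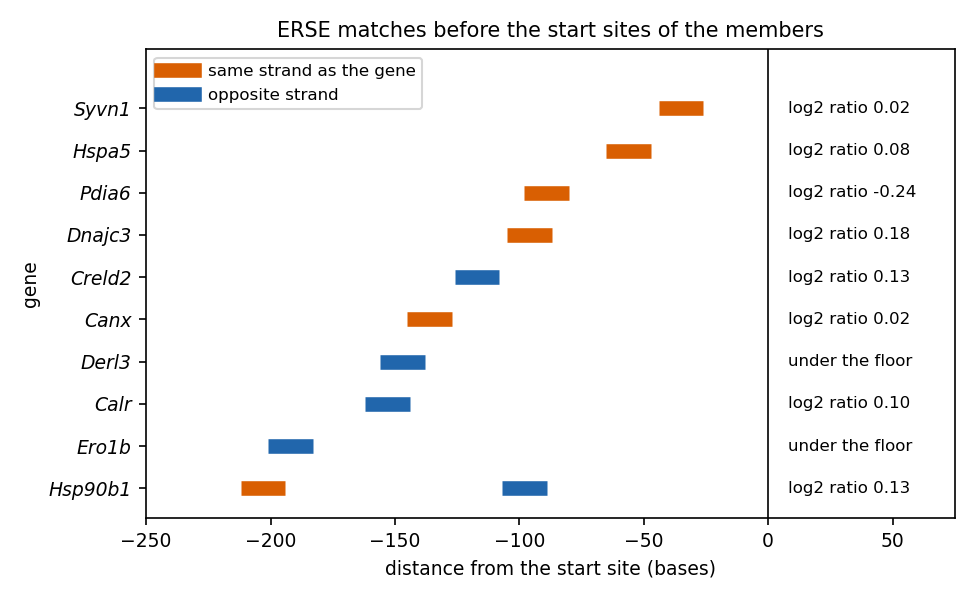
Position of each ERSE match in the 10 genes that held one, in bases from the start site; orange bars lie on the strand of the gene and blue bars on the opposite one. The matches spread from 212 to 44 bases upstream, and the log2 ratio printed at the right runs from -0.24 for Pdia6 to 0.18 for Dnajc3.

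Of the 40 genes on the arrays, 35 had a signal at or above the floor on both arrays, 1 on a single array and 4 on neither. The floor is a common signal of 77.3, the higher of the medians of the scaled arrays, under which MAS5 signals are close to background. A gene was represented by its brightest probe set over both arrays. The log2 ratio, ATCE1-C-del relative to empty vector, was taken after scaling each array to its trimmed mean, and a gene is called higher or lower by the sign of that ratio. Signals are printed as deposited.

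None of the 35 genes differed by 1.5-fold between the arrays, and none reached the smaller threshold of 0.32 in absolute log2 ratio, which is used below. Over all 6506 genes measured on both arrays, 1.83% passed 1.5-fold and 14.2% passed 0.32. The log2 ratios of the 35 genes ran from -0.27 for Pdia5 to 0.27 for Hyou1, with a median of 0.02 and an SD across genes of 0.13. Over all genes the median was -0.01 and the SD 0.23, and the middle 95% ran from -0.48 to 0.43. The median absolute log2 ratio was 0.08 for these genes and 0.14 for all genes. With 1 array per group this does not show that the genes were unchanged.

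The spread of ratios shrinks as signals grow, so the genes were also set beside all others within ranges of mean signal. In the range from 200 to 500, the SD was 0.15 over 13 of these genes and 0.23 over 2297 others, of which 14.7% passed 0.32. From 500 to 1500 it was 0.13 over 12 genes and 0.21 over 1776 others, of which 9.01% passed. Above 1500 it was 0.04 over 8 genes and 0.14 over 583 others, of which 2.92% passed. The narrower spread of the ER genes was seen in each of these ranges, which leave out 2 genes with weaker signals, and it was not tested. It was not particular to this list. Other genes of the ER pathway, described below, had SDs of 0.19, 0.17 and 0.11 in the same ranges.

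**Figure D2:**
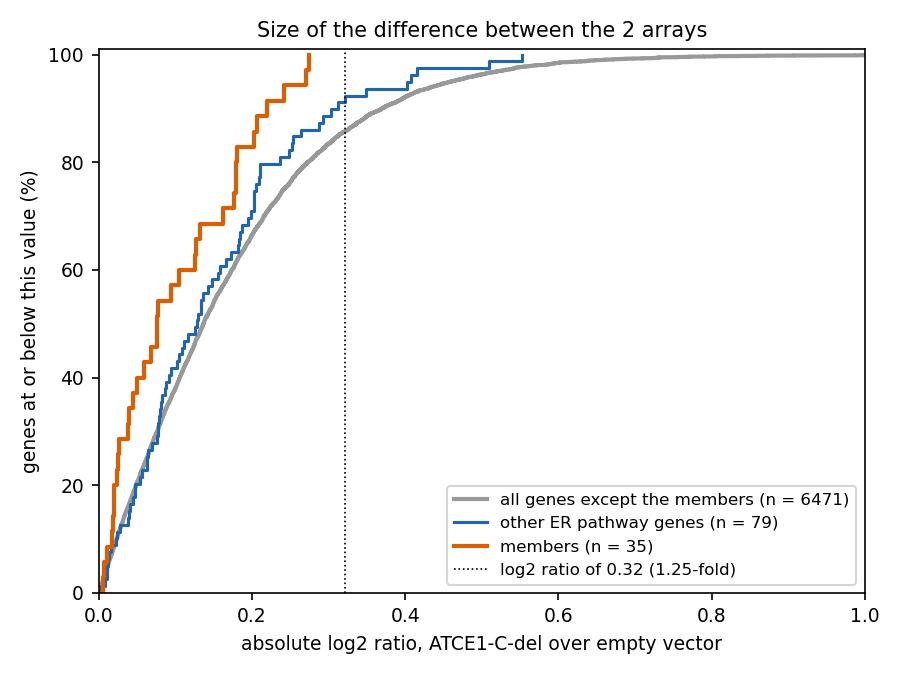
Share of genes (%) at or below each absolute log2 ratio between the arrays, for the 35 ER folding and degradation genes, 79 other genes of the ER pathway and 6471 genes outside the first list, all measured on both arrays. The orange curve ends before the dotted line at 0.32, while the other curves cross it.

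On both sides of 0 the split was 22 genes higher and 13 lower with ATCE1-C-del, or 62.9% higher, where 47.7% of all genes were higher. This split turned with the scaling, to 15 higher and 20 lower when arrays were scaled to their medians, and to 34 higher and 1 lower when they were scaled to the hybridisation control probe sets. It was 20 and 15 under quantile normalization and 21 and 14 under lowess. The median of all genes moved as well, to -0.04 with array medians and 0.24 with the hybridisation controls. It was -0.0018 under quantile normalization and -0.0039 under lowess. The share of all genes that were higher was not counted under these scalings. In the range of mean signal above 1500, the 8 ER genes were all above 0, the lowest at 0.01. The median of all 591 genes there was 0.04 and their SD 0.14, so most of them were above 0 as well. Their exact share above 0 was not counted. A scaling that multiplies a whole array by 1 factor shifts all genes alike. Positions relative to the median of all genes could therefore move more than slightly only under quantile normalization and lowess. Under all 6 scalings 18 genes lay above that median and 11 below it, and 6 (Canx, Derl1, Derl2, Fkbp2, P4hb and Vcp) changed side. The 18 probe sets for these controls, spiked in ahead of hybridisation, stood at a median log2 ratio of -0.25, with 17 below 0. What part this has in the ratios of the ER genes was not tested.

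**Figure D3:**
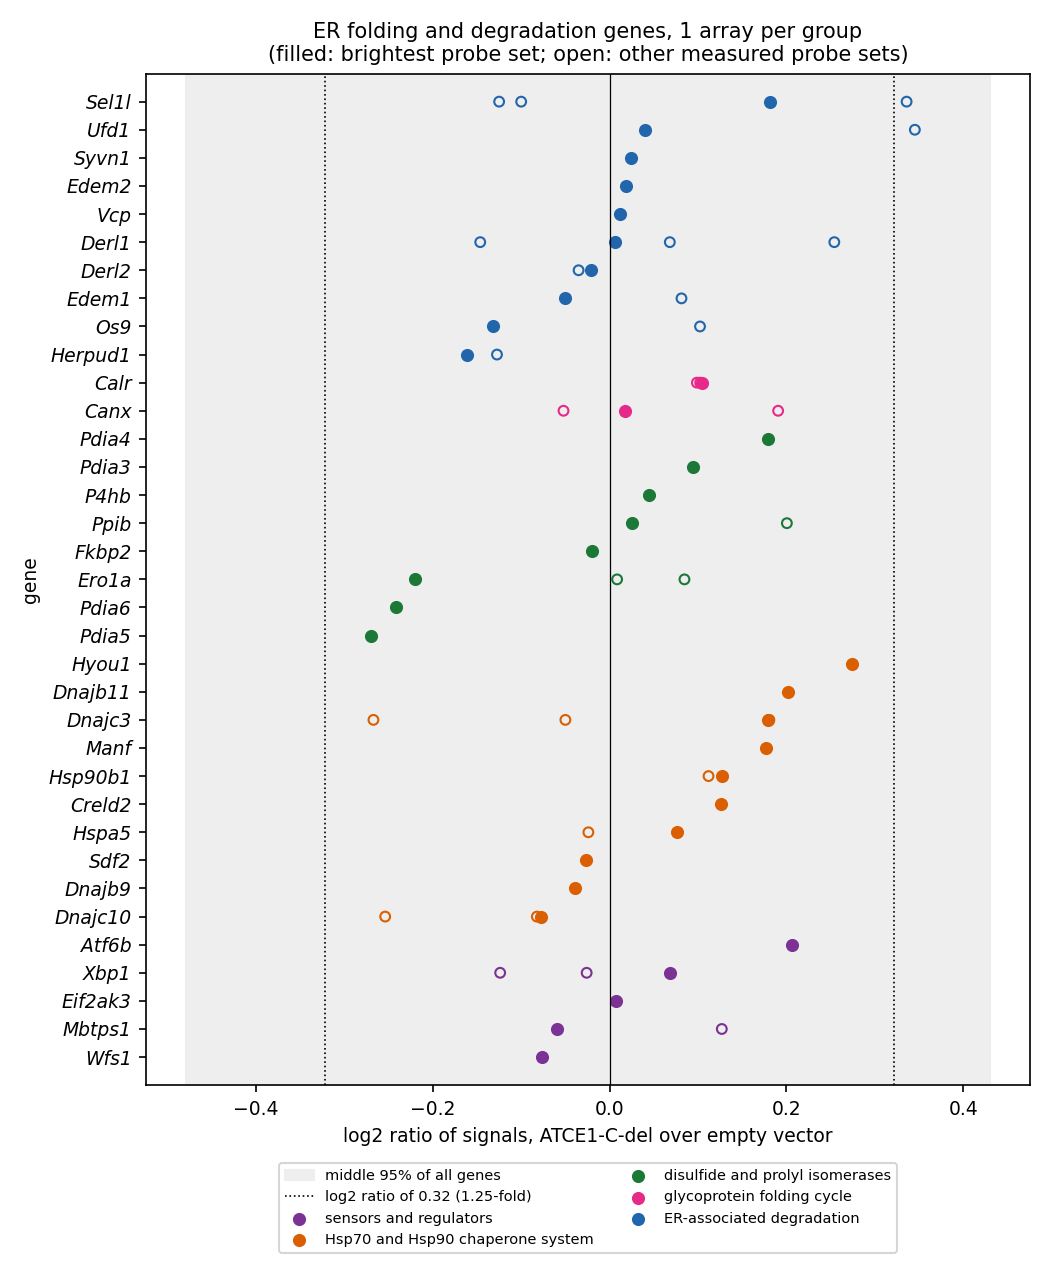
Log2 ratio (ATCE1-C-del relative to empty vector) for the 35 genes measured on both arrays, ordered within 5 roles; filled points are the brightest probe set of a gene and open points its other probe sets measured on both arrays. All filled points lie inside the dotted lines at -0.32 and 0.32 and inside the grey band, the middle 95% of all genes (-0.48 to 0.43), and many open points lie on the other side of 0 from the filled one.

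Among the sensors and regulators, 5 of 6 genes on the arrays were measured and their median log2 ratio was 0.01. Eif2ak3, which encodes the sensor kinase PERK, had a signal of 342 with ATCE1-C-del and 339 with the empty vector, a log2 ratio of 0.01. Ern1, the gene of the sensor and nuclease IRE1, was under the floor on all 3 of its probe sets, with signals of 11.6 and 30.0 on the brightest, so no ratio is given.

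Xbp1 encodes the transcription factor whose messenger is spliced by IRE1. Its brightest probe set read 1923 against 1829, a log2 ratio of 0.07, and its other measured probe sets had log2 ratios of -0.12 and -0.03. These probe sets fell on both sides of 0, and total signal does not separate spliced from unspliced Xbp1. Mbtps1, the gene of the site-1 protease that cleaves ATF6, read 791 against 822 (log2 ratio -0.06), with another probe set at 0.13. Atf6b, a relative of ATF6 cleaved in the same way, read 206 against 178 on its single probe set, at a log2 ratio of 0.21 the highest of this role. Wfs1, the gene of the ER membrane protein wolframin, read 212 against 223 (log2 ratio -0.08).

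The Hsp70 and Hsp90 chaperone system had a median log2 ratio of 0.13 over 10 measured genes, of which 7 were higher and 3 lower. No role was tested. The median lay between 0.10 and 0.13 under array medians, quantile normalization and lowess, and fell to 0.07 when all measured probe sets of a gene were averaged. The second brightest probe sets, available for 4 of the genes, gave a median of -0.04. Hspa5, the gene of BiP, read 3780.1 with ATCE1-C-del and 3575 with the empty vector, a log2 ratio of 0.08, and -0.02 on its other probe set. Hsp90b1, the gene of GRP94, read 2853 against 2605 (log2 ratio 0.13), and its other probe set gave 0.11. The probe sets of Hsp90b1 therefore fell on the same side, and those of Hspa5 did not. All of these probe sets can match several transcripts.

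Hyou1, an Hsp70 relative that serves as nucleotide exchange factor for BiP, had the highest log2 ratio of all 35 genes. It read 339.6 against 280.1, which is 1.21-fold higher, on a probe set that can match several transcripts. A dimmer probe set of the gene was above the floor only with ATCE1-C-del, at 89.5 against 60.1, and was at least 1.16-fold higher. Both readings of Hyou1 lay on the same side, and its dimmest probe set was under the floor on both arrays.

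The J-domain partners of BiP differed among themselves. Dnajb11 read 519.8 against 450.6 (log2 ratio 0.20) and Dnajb9 442 against 453 (log2 ratio -0.04), each on 1 probe set. Dnajc3, which also inhibits PERK, read 290.5 against 256 (log2 ratio 0.18), but its other measured probe sets spread from -0.27 to 0.18. Dnajc10, a reductase as well as a J-domain protein, read 582 against 613 (log2 ratio -0.08), and its other probe sets gave -0.08 and -0.25. Only Dnajc10 among the J-domain genes with several measured probe sets had all of them on the same side.

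Manf, a small ER protein that cells also secrete and that binds BiP, read 1116 against 985 (log2 ratio 0.18). Creld2, an ER protein induced by ER stress, read 306 against 279.7 (log2 ratio 0.13). Sdf2, a partner of BiP complexes, read 913 against 927 (log2 ratio -0.03), while its relative Sdf2l1, which ER stress induces, was under the floor with signals of 56.4 and 35.6. Each of these genes had a single probe set, so their readings have no second value to be set against.

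The disulfide and prolyl isomerases lay on both sides of 0, with 4 genes higher, 4 lower and a median log2 ratio of 0.00235 over 8 measured genes. They held the lowest 3 values of the 35 genes. Pdia5, a disulfide isomerase, read 277 with ATCE1-C-del and 333 with the empty vector, 1.21-fold lower. Pdia6, a disulfide isomerase that also acts on IRE1, read 1280.3 against 1509.9, 1.18-fold lower, its other probe set being under the floor. Ero1a, the oxidase that recharges disulfide isomerases, read 652 against 757 (log2 ratio -0.22). Its other probe sets gave 0.01 and 0.08, so the low value of Ero1a rests on 1 of 3 probe sets. Scaled to the hybridisation controls, the log2 ratios of Pdia6 and Ero1a turned to 0.0084 and 0.03, and that of Pdia5 stayed below 0 at -0.02. The median of all genes was 0.24 under that scaling. Relative to it, Pdia5 stood at -0.26, Pdia6 at -0.23 and Ero1a at -0.21, and each lay below the median of all genes under all 6 scalings.

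Other isomerases were level or slightly above. P4hb, the gene of the founding disulfide isomerase PDI, read 3415 against 3302 (log2 ratio 0.04), and Pdia3, which works with the lectin chaperones, read 2071 against 1934 (log2 ratio 0.09). Pdia4, a further family member, read 168 against 148 (log2 ratio 0.18), with its other probe set at background. The family of 5 PDI genes thus ran from -0.27 to 0.18 in log2 ratio. The prolyl isomerase gene Ppib, for cyclophilin B, read 1479 against 1449 (log2 ratio 0.02), and 0.20 on its other probe set. Fkbp2, a prolyl isomerase of another class, read 607 against 614 (log2 ratio -0.02). Ero1b, the second ER oxidase, was under the floor on all of its 3 probe sets, at 35.3 and 35.4 on the brightest.

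In the glycoprotein folding cycle, lectin chaperones bind trimmed sugars and a glucosyltransferase marks proteins for another round. Calr, the gene of the soluble lectin calreticulin, read 3150 against 2921 (log2 ratio 0.10), and its other probe sets gave 0.10 and 0.10, the closest match among probe sets of any gene on the list with 3 or more. All 3 probe sets of Calr can match several transcripts. Canx, for the membrane lectin calnexin, read 1973 against 1944 (log2 ratio 0.02), with its other probe sets at 0.19 and -0.05. Uggt1, the folding sensor glucosyltransferase, was above the floor only with ATCE1-C-del, at 85.7 against 73.9, and was at least 1.11-fold higher.

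ER-associated degradation had a median log2 ratio of 0.01 over 10 measured genes, 6 higher and 4 lower. Herpud1, a membrane protein that assembles degradation complexes and a strongly induced gene of ER stress, read 514 with ATCE1-C-del and 573 with the empty vector (log2 ratio -0.16), and -0.13 on its other probe set. Syvn1, the ubiquitin ligase HRD1, read 269 against 264 (log2 ratio 0.02). Sel1l, the adaptor of HRD1, read 548 against 482 (log2 ratio 0.18), but its other probe sets gave -0.10, -0.13 and 0.34. The readings of Herpud1 fell together below 0, and those of Sel1l spread more widely than for any other gene on the list.

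The mannosidase-like genes Edem1 and Edem2, whose products mark misfolded glycoproteins for disposal, read 346 against 357 (log2 ratio -0.05, other probe set 0.08) and 225 against 221 (log2 ratio 0.02). Os9, a lectin that receives those proteins, read 369.5 against 404 (log2 ratio -0.13), and 0.10 on its other probe set. The derlin genes encode membrane proteins of the export channel. Derl1 read 1289 against 1280.1 (log2 ratio 0.01), with other probe sets from -0.15 to 0.25, and Derl2 read 576 against 582 (log2 ratio -0.02), with its other probe set at -0.04. Derl3 was under the floor, at 12.4 and 15.9.

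Vcp, the ATPase that pulls proteins out of the membrane, read 2655 against 2627 (log2 ratio 0.01). Its cofactor gene Ufd1 read 353 against 342 (log2 ratio 0.04) on a probe set that can match several transcripts. The other probe set of Ufd1 read 345.6 against 271, a log2 ratio of 0.35, so that Ufd1 passed 0.32 when that probe set was used. Of all 63 probe sets of these genes measured on both arrays, only this one and the dimmest one of Sel1l passed 0.32, where 15.6% of all probe sets did.

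**Figure D4:**
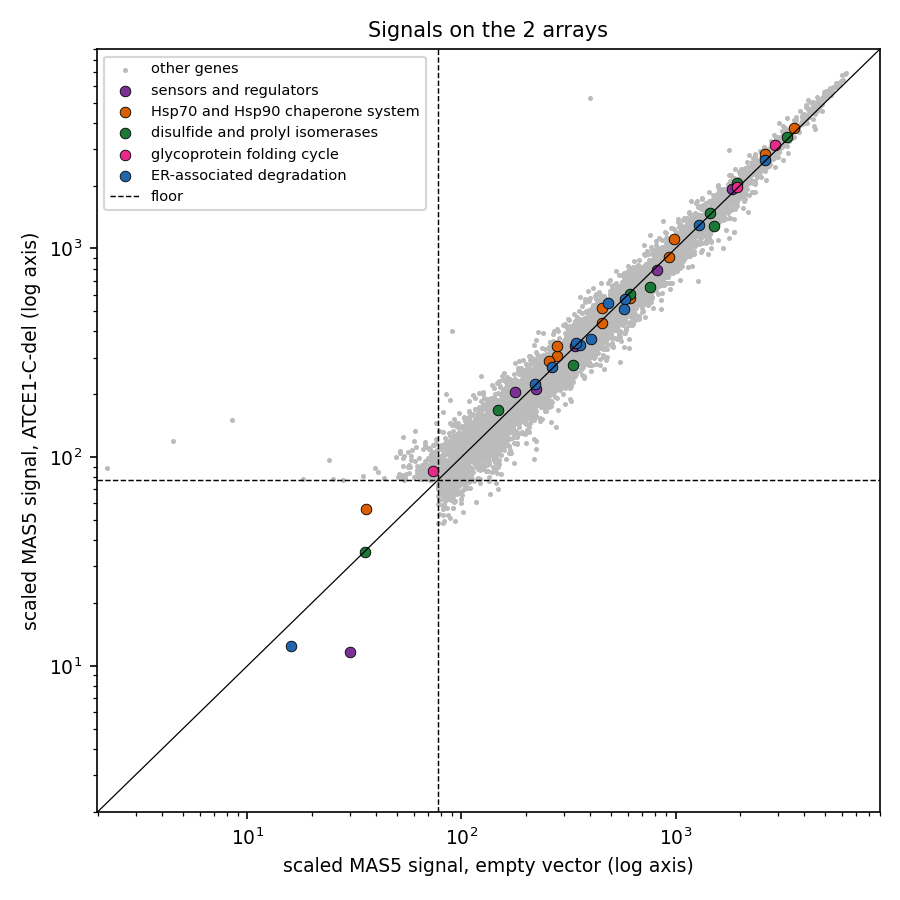
Scaled MAS5 signal of each gene on the ATCE1-C-del array against the empty vector array, both on log axes; grey points are other genes above the floor on at least 1 array and coloured points the 40 ER genes by role. The coloured points above the dashed floor lines lie near the diagonal, and 4 genes lie under both lines.

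The only spread that single arrays hold is that between probe sets of one gene. Among the 17 ER genes with at least 2 probe sets measured on both arrays, the 2 brightest fell on the same side of 0 in 9, or 52.9%, where they did in 59.9% of 2441 genes overall. The median absolute difference between them was 0.17 in log2 ratio for both sets of genes. The median absolute log2 ratio of the brightest probe set was smaller, 0.08 for the 35 ER genes and 0.14 for all genes. A difference holds the variation of 2 probe sets and a single ratio that of 1, so these sizes are not on an equal footing. Counting all measured probe sets, Calr, Hsp90b1, Ppib and Ufd1 were higher on each of theirs, Derl2, Dnajc10 and Herpud1 lower on each, and the other 10 genes lay on both sides. The SD of 1 probe set from this source was 0.20 over all genes, and 6 of the 35 genes (Atf6b, Dnajb11, Ero1a, Hyou1, Pdia5 and Pdia6) had a log2 ratio beyond it, as did 33.8% of all genes. Taken from the ER genes alone the SD was 0.12, with 14 of the 35 beyond it, as were 55.1% of all genes. This SD leaves out variation between cultures and labelling reactions.

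Genes with an ERSE match were set beside those without a match to the exact spelling. The 8 measured genes with a match had log2 ratios from -0.24 (Pdia6) to 0.18 (Dnajc3) and a median of 0.09. Of these, 7 were higher and 1 lower, where 47.7% of all genes were higher. The split was 5 and 3 under array medians, 6 and 2 under quantile normalization and lowess, and 8 and 0 with the hybridisation controls. The median of all genes moved too, to -0.04 under array medians and 0.24 with the hybridisation controls. The share of all genes higher was not counted under these other scalings. The 24 measured genes whose promoter lacked the motif ran from -0.27 to 0.21 with a median of -0.01, 12 being higher. Hyou1, Manf and Derl1 had no promoter sequence matched and are in neither group, among them the highest ratio of the 35 genes. The ranges overlap almost fully. Hspa5, Hsp90b1, Calr and Canx had mean signals above 1500, as did Vcp, P4hb, Pdia3 and Xbp1 among the genes without the motif. In that range the median of all genes was 0.04, against -0.03 from 200 to 500 and -0.02 from 500 to 1500. Under quantile normalization and under lowess the median with an ERSE was 0.045. What part brightness has in these medians was not tested. The median with an ERSE lay between 0.04 (mean over probe sets) and 0.13 (without probe sets that can match several transcripts) under the other settings, apart from the hybridisation controls (0.34). The value of 0.13 leaves out Hspa5, Hsp90b1 and Calr, all of whose probe sets can match several transcripts. The second brightest probe sets and the floor at the 75th percentile leave out genes too. The genes with the second form of the element went apart, Herpud1 to -0.16 and Dnajb11 to 0.20.

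Other genes of the ER pathway, a list of 107, had 87 genes on the arrays and 79 measured on both. Of these, 27 were higher and 52 lower, or 34.2% higher, where 47.7% of all genes were higher. Their median was a log2 ratio of -0.07, under the -0.01 of all genes, whereas the listed ER folding and degradation genes stood at 0.02. Scaled to the hybridisation controls these medians were 0.18, 0.24 and 0.27, in the same order. In this list 1 gene was higher by at least 0.32, as were 6.12% of all genes, and 5 were lower by at least that much, as were 8.04%. The higher one was Ube2j1, the conjugating enzyme that works with HRD1, at 300 against 224, but its other probe set gave 0.08.

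The 5 lower ones were Jkamp, Erp44, Ube2g1, Herpud2 and Nck1, the last named outside the rule for named genes. Jkamp, which links degradation complexes to the proteasome, read 434 against 634.5 (log2 ratio -0.55), and its other probe set gave -0.47. Erp44, which retains ERO1 oxidases in the ER, read 456 against 648 (log2 ratio -0.51). Herpud2, the relative of Herpud1, read 333.5 against 439.5 (log2 ratio -0.40), with -0.19 on its other measured probe set, and the conjugating enzyme gene Ube2g1 read 675 against 893 (log2 ratio -0.41). Jkamp and Herpud2 were thus lower on each measured probe set. Nck1, an adaptor that modulates PERK, had a log2 ratio of -0.35.

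The next highest genes of that list were Crebzf (0.26, with 0.17 on its other measured probe set), Cnpy3 (0.24) and Tor1a (0.21), which encode a bZIP cofactor, a co-chaperone and an ATPase of the ER lumen. Of the 14 measured stress signalling genes in the list, 3 were higher and 11 lower, with a median of -0.08. That is 21.4% higher, where 47.7% of all genes were higher, and the split depends on the scaling. Atf6 stood at a log2 ratio of -0.02, Atf4, the transcription factor of the PERK branch, at 0.06, and Ddit3, the gene of the stress factor CHOP, at -0.08. Trib3, a target of CHOP, stood at -0.25, while Ppp1r15a and Chac1 of the same group stood at -0.08 and -0.0031. Among the relatives of Creb3l4, Creb3l1 and Creb3l2 stood at -0.29 and -0.31, and Creb3 at 0.09. Creb3l1 read 82.5 with ATCE1-C-del and 100.8 with the empty vector, close to the floor, and Creb3l3 was under the floor. Creb3l4 itself, the gene carried by the plasmid, was under the floor on both arrays, at 18.0 with ATCE1-C-del and 20.7 with the empty vector. The sources used here do not say where its probes lie on the deleted construct, so this does not check the labels.

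**Figure D5:**
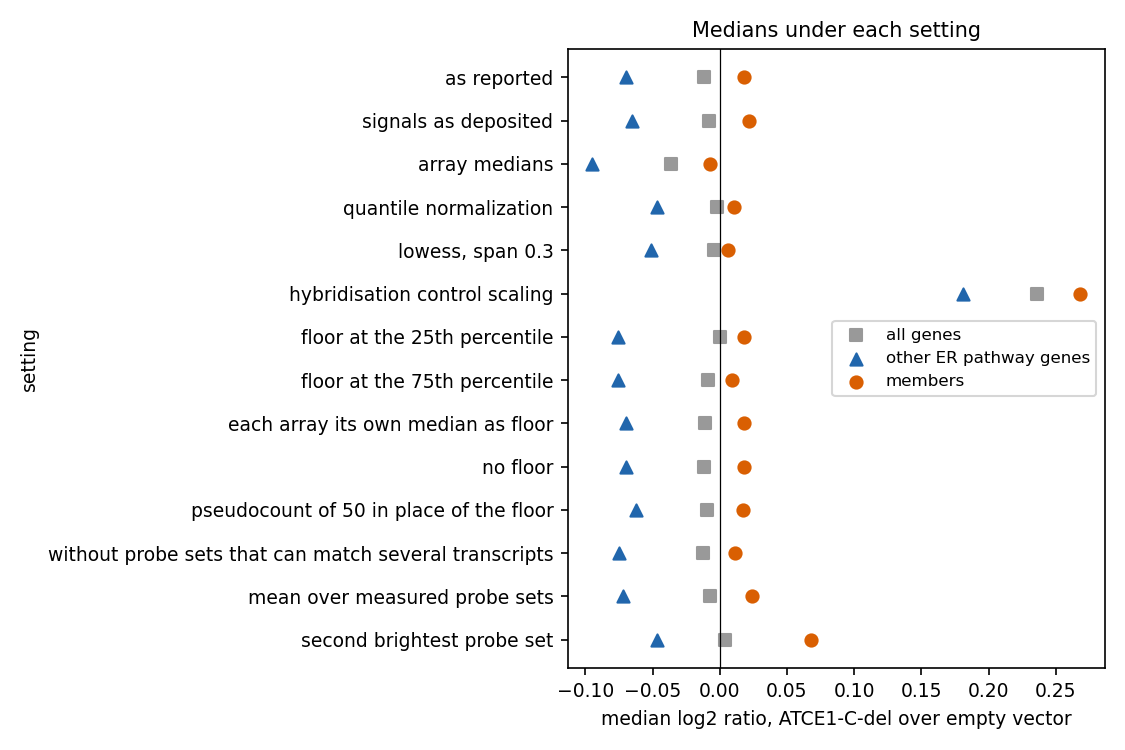
Median log2 ratio (ATCE1-C-del relative to empty vector) under each setting, for the listed ER genes (circles), other genes of the ER pathway (triangles) and all genes measured on both arrays (squares). The circle lies right of the square and the triangle left of it in every setting, and scaling to the hybridisation controls moves all of them, to 0.27, 0.18 and 0.24.

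Each array held 22690 probe sets, 64 of them controls, and the trimmed means before scaling were 249.8 and 249.2. All 10 fibroblast markers were measured on both arrays, with summed signals of 43102 and 42336. Their log2 ratios ran from -0.45 for Pdgfrb and -0.25 for Sparc to 0.15 for Thy1. None of the 5 epithelial, 4 endothelial and 4 muscle markers reached the floor, 2 of 5 macrophage markers did (Cd14 on both arrays and Cd68 with ATCE1-C-del) and 1 of 3 adipocyte markers did (Lpl, log2 ratio -0.51). What part these have in the ratios of the ER genes was not tested.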

How the data were processed

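Total RNA of 2 NIH 3T3 cultures was hybridised to 2 Affymetrix arrays, 1 per group. The authors' deposited values are signal intensity from MAS5, per the submitters' processing notes, and are linear. MAS5 combines matched and mismatched probes of a probe set. The sources used here give no target value or detection call, and precision is limited by there being 1 array per group.

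Each array was divided by its mean after trimming 2% at each end. Signals under the common floor (77.3) were set to it before log2 was taken, so a fold with 1 array under it is a lower bound ("at least"). The floor stands in for a detection call. The brightest probe set stood for a gene. Symbols came from the platform annotation and, for renamed genes, RefSeq synonyms.

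The members, the gene lists, the thresholds and the alternatives were chosen with earlier results of these data known. Every listed gene was named. Of the other pathway genes, up to 4 per direction with the largest ratio and Creb3l4 were named, and the stress mediators were named after their values were seen. The procedure was tested on simulated data. ER retrieval signals in proteins were not analysed here. Python 3.11.15, numpy 2.4.6, pandas 2.3.3, statsmodels 0.14.6 and matplotlib 3.10.9 were used.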

Additional observations from a re-analysis of the deposited data

How the results depend on the processing

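Scaling, floor, log scale and choice of probe set were varied, and with 1 array per group no replicate could be left out. No paired analysis was possible because each group has 1 array. Alternatives for the ERSE genes and the agreement of probe sets were chosen after the data were seen. Scaling to the hybridisation controls moved every median past the SD of 1 probe set (0.20 in log2 ratio): to 0.27 for the ER genes, 0.26 for sensors and regulators, 0.38 for the Hsp70 and Hsp90 chaperone system, 0.25 for the isomerases, 0.31 for the glycoprotein folding cycle, 0.26 for ER-associated degradation, 0.18 for the other pathway genes and 0.34 for genes with an ERSE. All genes moved to 0.24. The ER genes past 0.32 (log2) then numbered 12 of 35 and the other pathway genes 18 of 79, where 33.5% of all genes passed. With the floor at the 25th percentile 3 of 40 ER genes passed 0.32 (log2) (Derl3, Ern1 and Sdf2l1, all under the reported floor), where 23.2% of all genes passed. Of these ER genes 2 also passed 1.5-fold. The share of all genes past 1.5-fold was not counted at that floor, so this count has nothing to be set against. With probe sets of several transcripts left out, and with the second brightest probe sets, the count past 0.32 (log2) was 1 of 29 and 1 of 17, Ufd1 in both cases, where 14.98% and 17.9% of all genes passed. The second brightest probe sets differed in sign from the brightest in 8 of 17 genes.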
